A study of Mus musculus with 48 samples.

Results

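Livers of 8 mice, of 48 in the series, were compared to ask how hepatic expression differed between a diet rich in carbohydrate and a diet rich in fat when protein supplied 14% of energy. Each diet is named by the shares of its energy, in percent, that protein, carbohydrate and fat supply, in that order. The carbohydrate group was the 4 mice labelled 14/57/29, 2 on the high energy version of the diet and 2 on the medium energy version. The fat group was the 4 mice labelled High energy 14/29/57. A single mouse labelled Medium energy 14/29/57 was left out of the comparison because its array carried an extreme myeloid profile. All of these mice had eaten their diet from 3 weeks of age without restriction, and livers were taken at 15 months. Mice of both sexes entered the study, but the sex, strain, genotype and intake of each animal are not given in the labels used here. One mouse was taken from a cage, so the 8 arrays stand for 8 animals.

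Because all 4 mice of the fat group ate high energy food, energy density was not balanced between the groups, and the comparison was repeated on the high energy mice alone, 2 against 4. Whole liver was measured. In such bulk tissue fewer cells of a type and less RNA per cell cannot be told apart.

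Dietary carbohydrate and fat are handled by partly opposed programmes in hepatocytes. Glucose and insulin act through the transcription factors ChREBP (encoded by Mlxipl) and SREBP-1c (encoded by Srebf1) to promote glycolysis and the making of fatty acids from acetyl-CoA, whereas fatty acids arriving from the diet or from adipose tissue are ligands of PPAR alpha, which promotes their oxidation and the production of ketone bodies. SREBP-2 promotes cholesterol synthesis when sterol in the cell is low, and surplus fatty acid is stored in lipid droplets coated by perilipin and CIDE proteins.

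The label of liver was checked against markers. Over 11 genes of hepatocyte identity the mean log2 expression was 11.25 to 11.33 in the 4 mice of the carbohydrate group and 11.22 to 11.38 in the 4 of the fat group, while skeletal muscle markers averaged 1.54 to 1.88 and pancreatic acinar markers 2.23 to 2.64 over all 8. Y-linked genes lay above Xist in 2 mice of each group and Xist above the Y-linked genes in the other 2, and in the high energy carbohydrate mice the split was 1 and 1. Arrays of the same diet did not resemble each other more than arrays of different diets, with a median Pearson r across genes of 0.978 over 12 pairs and 0.979 over 16 pairs, whereas arrays on the same side of the Y-linked and Xist split had a median r of 0.983 and arrays on different sides 0.971. The interquartile range of the array, 3.09 to 3.37 with carbohydrate and 3.01 to 3.45 with fat, did not separate the groups (two-sided exact permutation p = 0.914, where 0.0286 is the smallest p possible).

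Replicate 4 of the fat group stood apart from the other 7 mice. Its macrophage and myeloid markers averaged 5.89 on the log2 scale against 4.05 to 4.89 in the other 7, and its lymphocyte markers 4.06 against 2.50 to 3.01. The medium energy 14/29/57 mouse that was left out had a myeloid mean of 8.74 and a hepatocyte identity mean of 10.18, below all 8 mice. With it added to the fat group the median difference, carbohydrate minus fat, was 0.22 for hepatocyte identity, with all 11 genes higher. It was then 0.56 for bile acid genes, 0.53 for xenobiotic genes and 0.18 for amino acid catabolism, where 24 of 27 were higher. Values without replicate 4, or with the medium energy mouse added, are given below where they moved a list or a described gene most.

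At a Benjamini-Hochberg threshold of 0.05 (limma) 0 of 16926 genes tested differed between the carbohydrate and the fat group (0% called), and the lowest adjusted p was 0.999. Before adjustment 482 genes (2.85%) had a p under 0.05, 233 higher with carbohydrate (1.38%) and 249 lower (1.47%). A uniform spread of p-values would give 846. In 329 genes (1.94%) the values of the groups did not overlap, with all 4 carbohydrate values above in 144 (0.851%) and all 4 below in 185 (1.09%). The 95% interval of a difference reached, in the median gene, 0.43 to either side on the log2 scale, or 1.35-fold, and for 15286 genes (90.3%) the interval lay within 2-fold in either direction. These widths are for single genes without adjustment. Effects well above them could also miss the threshold over all genes, which none of the 51 genes that differed by more than 2-fold passed. The absence of calls does not show that the diets act alike. The differences ran from -2.35 to 1.86 with a median of 0.01, and 8905 genes were higher and 8021 lower with carbohydrate. In 51 genes the difference exceeded 2-fold, 17 higher and 34 lower with carbohydrate.

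The genes below are therefore described by their values. Each difference is the mean of the carbohydrate group minus that of the fat group on the log2 scale, with its standard error, and none passed the threshold over all genes. The 24 genes with the smallest p, 12 in each direction, all kept their sign in the high energy mice alone, within each side of the Y-linked and Xist split, and without replicate 4 of the fat group. In 23 of the 24 the groups did not overlap, which is what choosing small p-values favours. Without overlap any subset of the same mice keeps the sign, so for these 23 genes the agreement was fixed by the choice.

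Bcl6, a transcriptional repressor that in liver restrains genes of lipid handling and of female-pattern expression, had the smallest p and the largest positive difference of all genes tested. Its log2 expression was 7.01 and 7.91 in the high energy carbohydrate mice, 6.07 and 7.49 in the medium energy carbohydrate mice, and 5.11, 4.98, 5.37 and 5.58 in the fat group. All 4 carbohydrate values lay above all 4 fat values. The difference was 1.86 ± 0.34 (95% interval 1.11 to 2.61, or 2.16-fold to 6.11-fold), 3.63-fold, with an unadjusted limma p of 0.000219. It was 2.53 between the mice with Y-linked genes above Xist, 1.19 between those with Xist above, and 2.20 ± 0.30 in high energy mice alone.

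The other 11 genes of smallest p among those higher with carbohydrate were Fthl17f, Btbd6, Gal3st2b, Gal3st2c, Hsbp1l1, Vegfb, Fbxo46, Bambi-ps1, Olfr1193, Gm3414 and Tle2. Their differences ran from 0.39 (Olfr1193) to 1.02 (Fthl17f). Several of them, among them Olfr1193, Fthl17f and Gal3st2c, lay near the low end of the scale, with fat group means of 1.04, 1.28 and 1.15. Gal3st2b and Gal3st2c are close copies, so a probe may not tell them apart. Vegfb, a growth factor of the VEGF family tied to endothelial fatty acid transport, was well expressed. It measured 7.06, 7.36, 7.37 and 7.38 with carbohydrate and 6.96, 6.87, 6.59 and 6.54 with fat. Only the first carbohydrate mouse came near the fat group, and the difference was 0.55 ± 0.15. Tle2, a corepressor of the Groucho family, differed by 0.995 ± 0.29, and Fbxo46, an F-box protein gene, by 0.81 ± 0.22.

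The 12 genes of smallest p among those lower with carbohydrate included Cxcl10, Ccl5 and Ifit1. Ccl5, a chemokine of T cells and other leukocytes, measured 3.60, 4.14, 4.55 and 4.09 with carbohydrate and 5.24, 4.76, 5.09 and 5.59 with fat. Its groups did not overlap, and it differed by -1.07 ± 0.25, or by -0.93 without replicate 4 of the fat group, which was the highest. Cxcl10, an interferon-induced chemokine, differed by -0.97 ± 0.22 and by -0.92 without that mouse. Nlrp12, a NOD-like receptor that dampens inflammatory signalling, differed by -0.81 ± 0.19.

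Ppm1k encodes the mitochondrial phosphatase that activates branched-chain ketoacid dehydrogenase. It measured 8.28 and 8.49 in the high energy and 8.33 and 8.003 in the medium energy carbohydrate mice, against 8.96, 9.38, 8.76 and 8.77 with fat, a difference of -0.69 ± 0.17 (1.62-fold lower with carbohydrate). The groups did not overlap, but with the medium energy 14/29/57 mouse, at 6.22, added to the fat group the difference was -0.14 ± 0.55. Tmem86a, which encodes a lysoplasmalogenase, differed by -0.87 ± 0.19. Csrp3, a LIM protein best known from muscle, differed by -0.74 ± 0.18, and by -0.20 ± 0.54 with that mouse added. The remaining 5, Trim30c, Sapcd1, Psg29, Cgref1 and Vax2, had carbohydrate means between 0.98 and 2.37, near the low end of the scale.

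**Figure D1:**
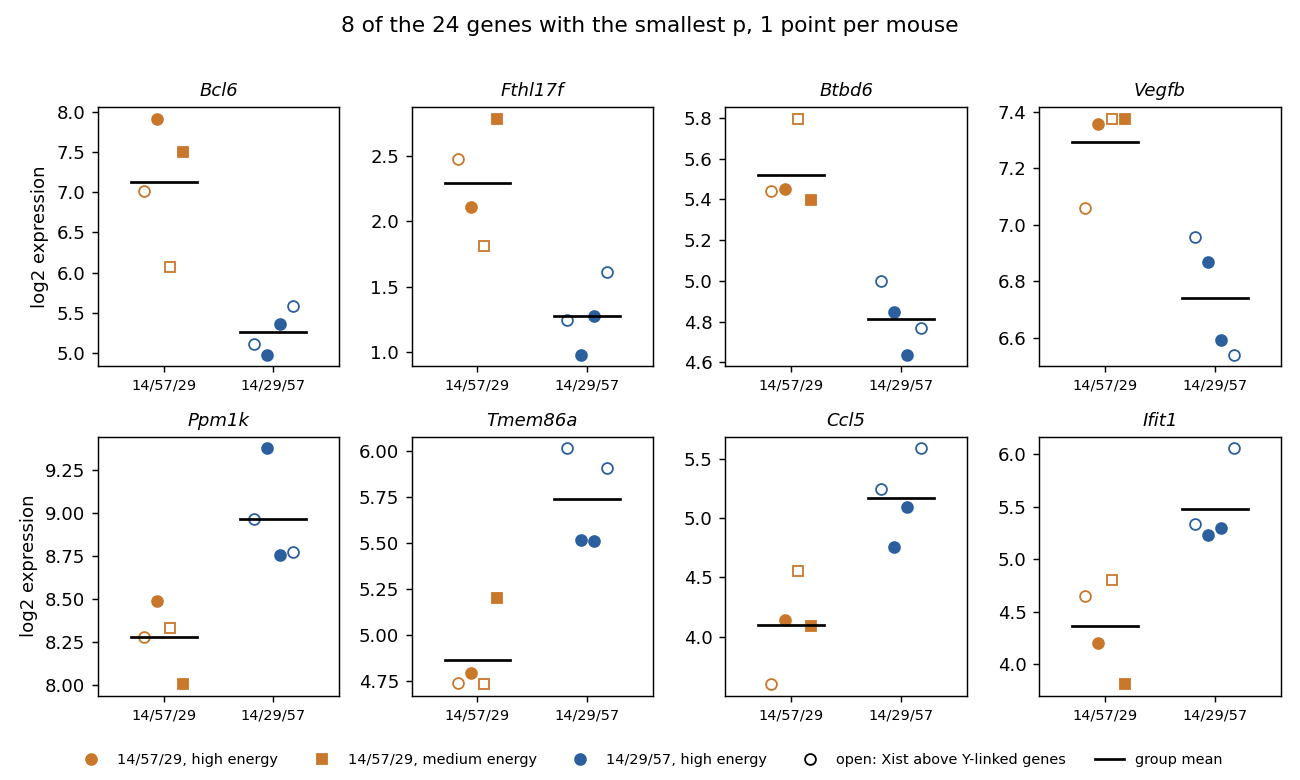
Log2 expression (vertical axis) of 8 of the 24 genes with the smallest p, 1 point per mouse by diet, with circles for high energy, squares for medium energy, open symbols where Xist lay above the Y-linked genes and a bar at the group mean. The 4 carbohydrate values of Bcl6 lie between 6.07 and 7.91, all above the fat values of 4.98 to 5.58, and the groups of the other 7 genes do not overlap either.

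A set of 34 genes known from other work to respond to carbohydrate or fat held 28 that were analysed here, 16 higher and 12 lower with carbohydrate. Of these, 3 reached an unadjusted p under 0.05, against 2.85% of all genes: Me1 and Acaca, both higher with carbohydrate, and Cidec, lower. Of the lipogenic enzymes, Me1, which supplies NADPH for fatty acid synthesis, measured 10.70, 9.64, 10.73 and 10.29 with carbohydrate against 10.43, 8.52, 9.0 and 9.39 with fat, a difference of 1.004 ± 0.37 (2.01-fold, 95% interval 1.13-fold to 3.56-fold), and of 1.83 ± 0.86 with the medium energy 14/29/57 mouse added to the fat group. One fat-fed mouse, replicate 1, lay within the carbohydrate range. Acaca, acetyl-CoA carboxylase and the committed step of the pathway, differed by 0.62 ± 0.28, Elovl6, which elongates palmitate, by 0.76 ± 0.40, Acly by 0.49 ± 0.23, Fasn, fatty acid synthase, by 0.51 ± 0.43 and Scd1, the main stearoyl-CoA desaturase, by 0.37 ± 0.17. Fasn ranged from 9.18 to 11.36 within the carbohydrate group alone, and the high energy mice spanned nearly all of that range, so its interval of -0.44 to 1.45 covered both no difference and a large one. Pnpla3, a lipid droplet protein under ChREBP and SREBP control, ranged from 1.88 to 6.23 with carbohydrate and from 1.5 to 4.84 with fat.

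**Figure D2:**
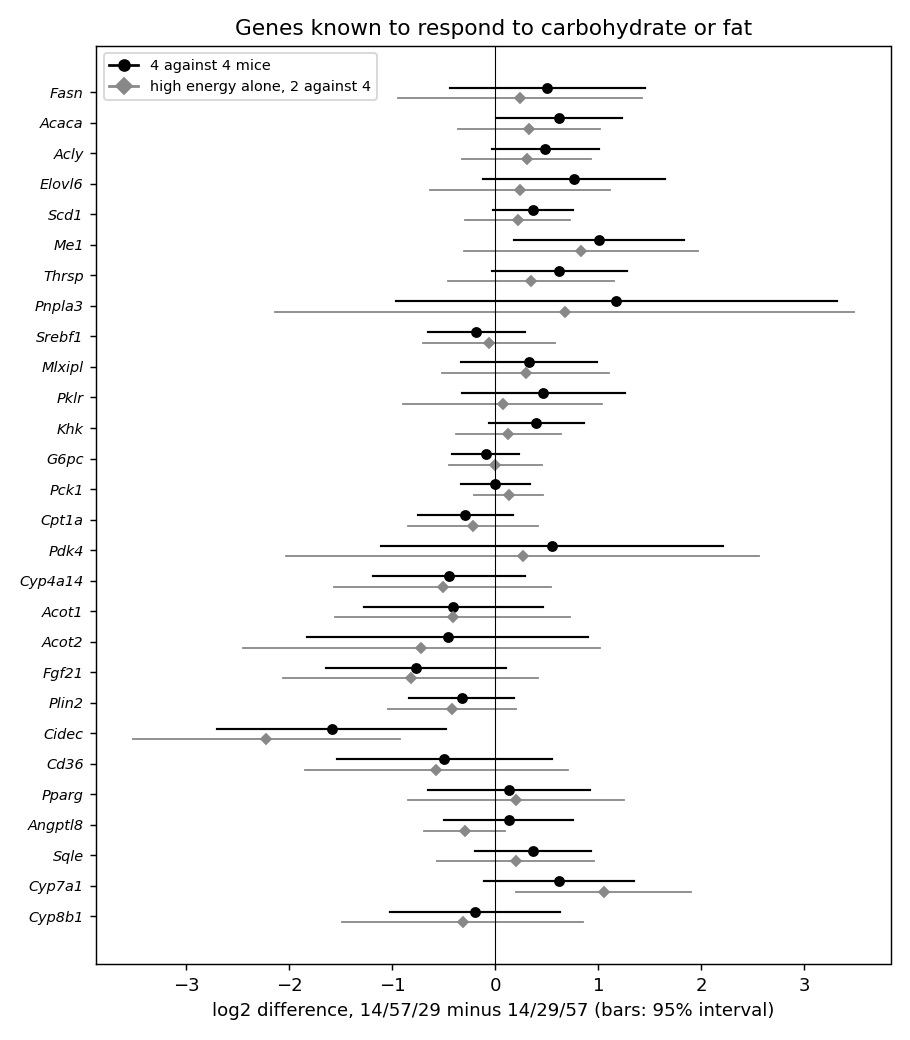
Log2 difference between the carbohydrate and the fat group (horizontal axis) for 28 genes known to respond to these nutrients, as points with 95% intervals for all 8 mice (black) and for the high energy mice alone (grey). Over the 8 mice the interval of Me1, Acaca and Cidec leaves out 0 and that of the other 25 does not.

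As a list, 17 of 24 genes of fatty acid synthesis and desaturation were higher with carbohydrate and 7 lower, with a median difference of 0.28 against 0.01 over all genes. At an unadjusted p under 0.05 stood 3 of the 24, all higher (1.38% of all genes): Acss2, which activates acetate to acetyl-CoA (0.83 ± 0.28), Me1 and Acaca. Means over the list per mouse were 9.56, 8.91, 9.72 and 9.46 with carbohydrate and 9.45, 9.08, 9.05 and 8.92 with fat. The groups overlapped, because the second high energy carbohydrate mouse was the lowest of all 8. In high energy mice alone the median difference was 0.09, with 12 genes higher and 12 lower. With the medium energy 14/29/57 mouse added all 24 were higher, with a median of 0.65, but so were all 11 hepatocyte identity genes, with a median of 0.22. With the Y-linked minus Xist value of each array as a term in the fit, 6 of the 24 were at an unadjusted p under 0.05. All 6 were higher, against 334 of all genes (1.97%) higher at that p. Without replicate 4 of the fat group 2 of the 24 were at that p, both higher, and the median was 0.22. In that fit 477 of 16926 genes were at that p in either direction.

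Of 14 genes of glycolysis and fructose use 9 were higher and 5 lower, the median was 0.08, and 0 were at an unadjusted p under 0.05. The count was 7 higher and 7 lower in high energy mice alone. Khk, ketohexokinase, which starts fructose breakdown, differed by 0.40 ± 0.21, and by 0.13 ± 0.22 in high energy mice alone, and Pklr, liver pyruvate kinase and a classic ChREBP target, by 0.47 ± 0.36. Of the regulators, Mlxipl differed by 0.33 ± 0.30 and Srebf1 by -0.18 ± 0.21, and both intervals held 0. Of 16 genes of gluconeogenesis and glycogen 1 stood at an unadjusted p under 0.05, higher (1.38% of all genes). This was the coactivator Ppargc1a, at 0.46 ± 0.17. G6pc, glucose-6-phosphatase, differed by -0.09 ± 0.15, with an interval of -0.42 to 0.23 that leaves out a 1.35-fold difference, and the interval of Pck1, phosphoenolpyruvate carboxykinase, was -0.34 to 0.33.

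Cholesterol genes lay on the same side as the lipogenic ones. Of 19 genes of cholesterol synthesis and uptake 17 were higher with carbohydrate and 2 lower, with a median of 0.22. At an unadjusted p under 0.05 were 3, all higher (1.38% of all genes). These were Mvd, mevalonate diphosphate decarboxylase (0.68 ± 0.24), Fdps, farnesyl diphosphate synthase (0.40 ± 0.17), and Insig1, the sterol-induced retention factor of SREBP (0.37 ± 0.13). Insig1 measured 10.16, 10.10, 10.51 and 10.40 with carbohydrate and 9.97, 9.87, 9.79 and 10.06 with fat, and its groups did not overlap. Within the carbohydrate group the medium energy mice were the higher ones, the high minus medium energy difference being -0.32 ± 0.17 for Insig1 and -0.76 ± 0.27 for Mvd. In high energy mice alone the median of the list was 0.09, and with the medium energy 14/29/57 mouse added it was 0.71. Cyp7a1, the rate-limiting enzyme of bile acid synthesis, differed by 0.62 ± 0.33 over the 8 mice and by 1.05 ± 0.37 in high energy mice alone (95% interval 0.20 to 1.90). Over 19 genes of bile acid synthesis and transport the median was 0.06, and 0.56 with the medium energy 14/29/57 mouse added. In high energy mice alone it was -0.003, with 8 higher and 11 lower.

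Genes of fatty acid oxidation and ketogenesis lay on the other side. Of 26 tested, 24 were lower with carbohydrate and 2 higher, with a median of -0.21 against 0.01 over all genes. The single differences were small, from -0.46 to 0.52. At an unadjusted p under 0.05 were 2, both lower (1.47% of all genes). These were Acadm, medium-chain acyl-CoA dehydrogenase, and Bdh1, which interconverts the ketone bodies. Acadm measured 10.70, 10.63, 10.77 and 10.63 with carbohydrate and 11.04, 11.10, 10.92 and 10.91 with fat. The groups did not overlap, and the difference was -0.31 ± 0.10 (1.24-fold lower with carbohydrate). Bdh1 differed by -0.41 ± 0.17, Acadl, long-chain acyl-CoA dehydrogenase, by -0.26 ± 0.12, Slc25a20, the carnitine-acylcarnitine carrier, by -0.25 ± 0.12 and Cpt1a, the carnitine palmitoyltransferase that gates entry to mitochondria, by -0.29 ± 0.21. Per mouse the list averaged 8.99, 8.45, 8.97 and 8.48 with carbohydrate and 9.21, 8.97, 8.62 and 8.86 with fat, so the groups overlapped although most genes leaned one way. The count was 22 lower of 26 in high energy mice alone and 24 lower of 26 without replicate 4 of the fat group. With the medium energy 14/29/57 mouse added it was 10 lower of 26 and the median was 0.02.

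Other PPAR alpha targets were 12 lower and 5 higher of 17, with a median of -0.14. Without replicate 4 of the fat group 15 were lower and the median was -0.25, whereas with the medium energy 14/29/57 mouse added 11 were higher and the median was 0.11. Over the 8 mice 1 of the 17 was at an unadjusted p under 0.05, lower (1.47% of all genes). Without replicate 4 of the fat group 0 of the 17 were. The gene was Vnn1, pantetheinase, with a difference of -1.17 ± 0.47. Its carbohydrate mice ran from 6.40 to 8.72 against 8.38 to 9.57 with fat. Fgf21, a fasting and low-protein hormone, differed by -0.76 ± 0.39, with one carbohydrate mouse at 4.40 and the other 7 mice between 5.49 and 6.74. Cyp4a14, a fatty acid omega-hydroxylase, differed by -0.45 ± 0.33. Pdk4, the kinase that shuts down pyruvate oxidation, did not lean the same way, at 0.55 ± 0.75.

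Lipid droplet and fatty acid uptake genes leaned towards the fat group. Of 21 tested, 14 were lower and 7 higher with carbohydrate, and the median was -0.20. At an unadjusted p under 0.05 were 4, all lower (1.47% of all genes): Cidec, Lpl, Fabp4 and Fabp2. Cidec, which fuses lipid droplets into larger ones, measured 3.20 and 3.41 in the high energy carbohydrate mice, 4.30 and 4.84 in the medium energy carbohydrate mice and 5.99, 6.24, 5.84 and 4.02 in the fat group. The low fat-fed value was replicate 4. The difference was -1.58 ± 0.50 (3.00-fold lower with carbohydrate) over the 8 mice, -2.08 without that replicate and -2.22 ± 0.57 in high energy mice alone. Lpl, lipoprotein lipase, measured 4.51, 5.34, 4.71 and 5.11 with carbohydrate and 5.04, 7.04, 7.15 and 5.81 with fat. Its difference was -1.35 ± 0.43, and fat replicate 1 lay within the carbohydrate range. Fabp2 and Fabp4, the fatty acid binding proteins first described in intestine and adipocytes, differed by -0.65 ± 0.22 and -0.92 ± 0.37. Lpl and Fabp4 are also expressed by macrophages and adipocytes. Of the 4 adipocyte markers tested 3 were lower with carbohydrate (Fabp4, Lipe at -0.20 and Retn at -0.12) and 1 was higher (Plin1 at 0.49), and their mean per mouse was 2.80 to 3.57 with carbohydrate and 3.07 to 3.70 with fat. The part of these cells in the result was not tested. Without replicate 4 of the fat group 6 of the 21 were at an unadjusted p under 0.05, all lower. Of all genes 1.6% were lower at that p in that fit.

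**Figure D3:**
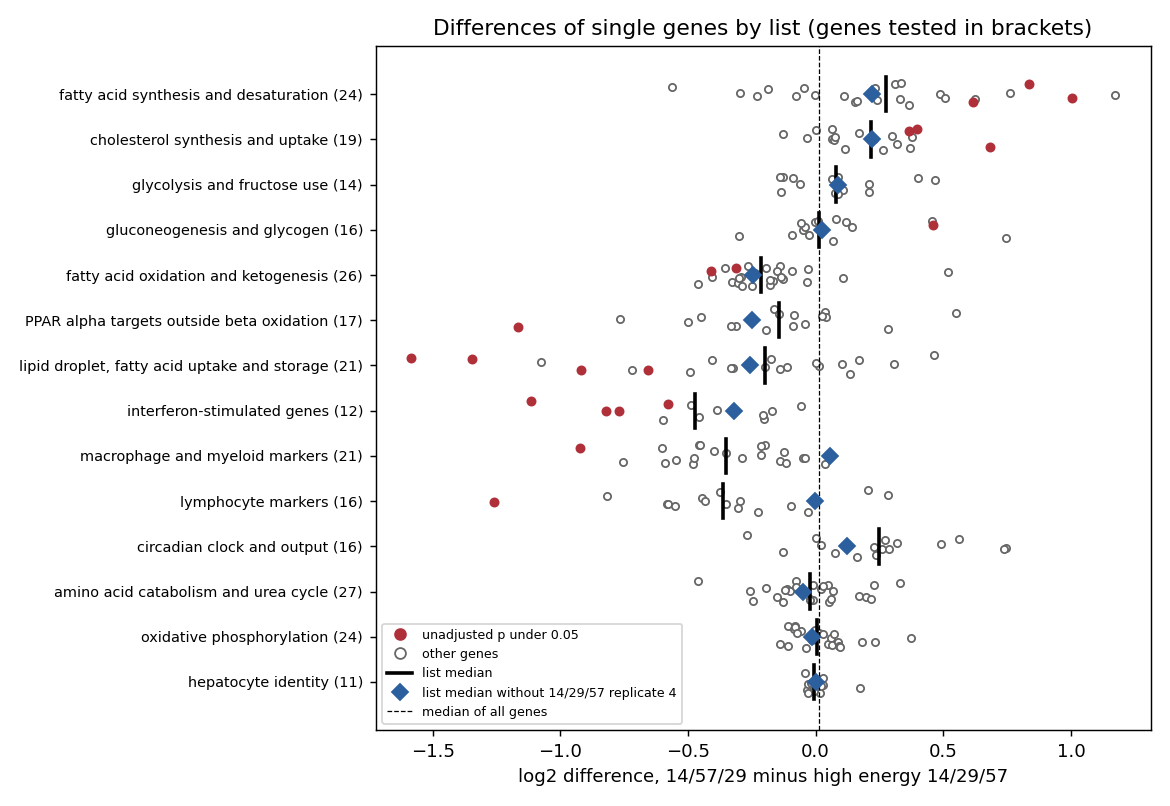
Log2 difference of each gene (horizontal axis) by list, with red points for an unadjusted p under 0.05, a black bar at the list median, a blue diamond at the median without replicate 4 of the fat group, and a dashed line at the median of all genes. Medians of fatty acid and cholesterol synthesis lie at 0.28 and 0.22, that of fatty acid oxidation at -0.21, and the macrophage median of -0.35 moves to 0.06 without replicate 4.

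Interferon-stimulated genes are antiviral effectors and regulators switched on by interferons. All 12 tested were lower with carbohydrate, from -1.11 to -0.06, with a median of -0.47. At an unadjusted p under 0.05 were 4 of them, against 1.47% of all genes lower. In 2, Ifit1 and Rsad2, the groups did not overlap (1.09% of all genes lay below in this way). To show the DNA ahead of these genes, 250 bases upstream of the start are given from RefSeq (GRCm38.p6) for both, with the interferon-stimulated response element in capitals. The motif searched, on both strands, was GAAA and another GAAA with any 2 bases between them, and it appears in both sequences as read from the other strand, TTTC with 2 bases and TTTC after it.

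Ifit1, chr19:34640639-34640888, plus strand: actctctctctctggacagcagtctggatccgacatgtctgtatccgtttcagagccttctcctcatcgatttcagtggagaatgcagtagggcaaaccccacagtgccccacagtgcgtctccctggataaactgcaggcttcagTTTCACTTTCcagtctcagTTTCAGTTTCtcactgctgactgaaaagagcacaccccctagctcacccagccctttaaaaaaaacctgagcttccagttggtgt

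Rsad2, chr12:26456453-26456702, minus strand: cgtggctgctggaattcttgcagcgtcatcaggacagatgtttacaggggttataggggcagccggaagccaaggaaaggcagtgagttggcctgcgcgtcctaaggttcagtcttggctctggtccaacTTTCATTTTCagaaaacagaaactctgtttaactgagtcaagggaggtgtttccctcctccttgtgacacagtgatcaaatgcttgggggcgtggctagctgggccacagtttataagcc

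Ifit1 holds 2 matches, which begin 104 and 85 bases before the start, and Rsad2 holds 1, at 120 bases. Of the 12 interferon-stimulated genes 10 had an upstream sequence, and 6 of these held the motif, against 936 of 27025 genes (3.46%) with a sequence of the same length. These are matches of letters in genes long known to answer interferon, not measured sites. A sterol element of letters TCACNCCAC was found in 1 of 15 cholesterol genes (Hmgcs1) and 1 of 20 fatty acid synthesis genes (Mlxipl), against 1.22% of genes. A PPAR element, AGGTCA and a second AGGTCA with any 1 base between them, was found in 0 of 22 oxidation genes, against 0.0407%. Only 11 of 27025 genes held that exact motif, so 0 would be the likely count for any 22 genes.

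Ifit1, which binds viral RNA lacking cap methylation, measured 4.65, 4.20, 4.80 and 3.81 with carbohydrate and 5.33, 5.23, 5.29 and 6.06 with fat. The difference was -1.11 ± 0.27 (2.17-fold lower with carbohydrate) and -0.92 without replicate 4, the highest. Rsad2, the antiviral enzyme viperin, measured 4.30, 3.86, 4.08 and 4.01 against 4.58, 4.43, 4.73 and 4.82, a difference of -0.58 ± 0.19. Its groups lay apart by a narrow gap. Oasl1, a regulator of the OAS family, differed by -0.82 ± 0.32, and Usp18, the enzyme that removes ISG15 and brakes interferon signalling, by -0.77 ± 0.32, and both overlapped. In high energy mice alone 11 of the 12 were lower with a median of -0.61. Without replicate 4 of the fat group 10 of 12 were lower and the median was -0.32. In that fit 2 were lower at an unadjusted p under 0.05, as were 270 of all genes (1.6%). Replicate 4 had the highest mean of the list, 5.78 against 4.62 to 5.35 in the other 7.

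Markers of immune cells were also mostly lower with carbohydrate over the 8 mice. Of 21 macrophage and myeloid markers 20 were lower with carbohydrate, with a median of -0.35, and of 16 lymphocyte markers 14 were lower, with a median of -0.36. Without replicate 4 of the fat group these medians were 0.06, with 9 of 21 lower, and less than 0.01 from 0, with 8 of 16 lower, so both leanings rested on that mouse. With the medium energy 14/29/57 mouse added they were -1.14 and -0.54. The part of immune cells in the interferon genes was not tested. At an unadjusted p under 0.05 were 1 of the 21 myeloid and 1 of the 16 lymphocyte markers, both lower (1.47% of all genes). The myeloid marker was Ly6c2, of inflammatory monocytes (-0.92 ± 0.31, and -0.65 without replicate 4). The lymphocyte marker was Ms4a1, the B cell antigen CD20 (-1.26 ± 0.44, and -0.72 without replicate 4). Ms4a1 measured 0.82 to 1.18 with carbohydrate, near the low end of the scale, and 1.31, 1.77, 1.90 and 3.83 with fat. Of 21 acute phase and inflammation genes 13 were lower and 8 higher, with a median of -0.08, and without replicate 4 of the fat group 7 were lower and 14 higher, with a median of 0.05. In that list Tnf and Orm3 were at an unadjusted p under 0.05, both lower (1.47% of all genes). Tnf, a cytokine of macrophages, was lower in all 4 carbohydrate mice, with a difference of -0.53 ± 0.17. Orm3, an acute-phase orosomucoid, differed by -1.62 ± 0.64, with fat replicates 1 and 4 at 5.16 and 6.06 and the other 6 mice between 2.41 and 3.11.

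**Figure D4:**
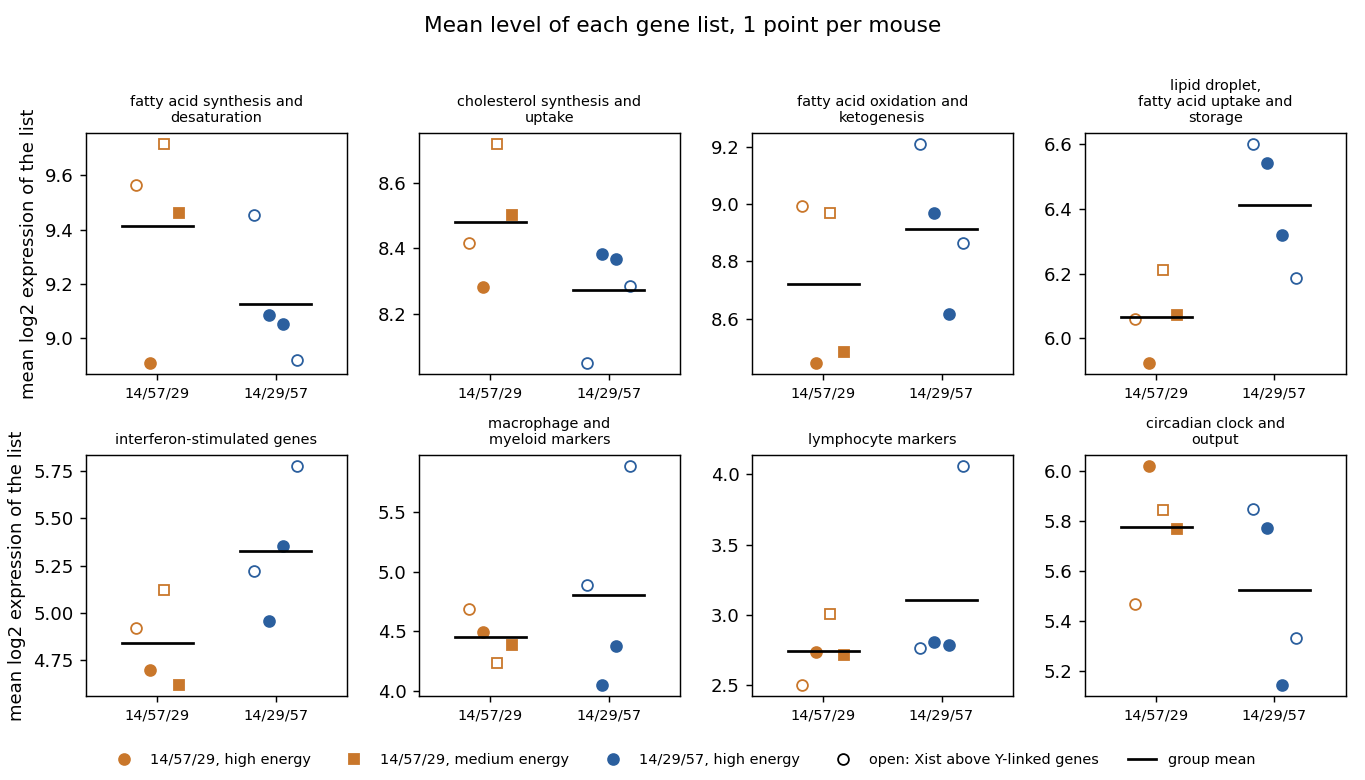
Mean log2 expression of 8 gene lists (vertical axis), 1 point per mouse by diet, with circles for high energy, squares for medium energy and open symbols where Xist lay above the Y-linked genes. Replicate 4 of the fat group is the highest point of the interferon (5.78), macrophage (5.89) and lymphocyte (4.06) panels, and in the fatty acid synthesis, cholesterol and oxidation panels the groups overlap.

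Among the other lists, 14 of 16 circadian clock and output genes were higher with carbohydrate, with a median of 0.25 and 0 at an unadjusted p under 0.05. The median was 0.12 without replicate 4 of the fat group, and 0.15 with 11 of 16 higher in high energy mice alone. The clock genes varied widely within groups, with Ciart from 2.37 to 5.99 in the carbohydrate group, and the hour of harvest was not given. Lepr, the leptin receptor, differed by 1.02 ± 0.43, its carbohydrate mice at 5.51 to 6.63 and its fat mice at 4.04 to 5.99. Of 22 genes of xenobiotic metabolism 3 were at an unadjusted p under 0.05, all higher (1.38% of all genes): Cyp2c55 (1.25 ± 0.44), Gstm3 (0.80 ± 0.29) and Gstm1 (0.37 ± 0.16), a cytochrome P450 and glutathione transferases. The list had a median of 0.04 with 12 of 22 higher, and without replicate 4 of the fat group 0.25 with 17 of 22 higher and 1 at an unadjusted p under 0.05. The largest negative difference of all genes, that of the female-pattern cytochrome Cyp2b9 (-2.35 ± 2.16), had a 95% interval of -7.13 to 2.42. Its values ran from 0.86 to 10.72 in the carbohydrate group, where both mice with Xist above the Y-linked genes had 10.72.

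Among lists of other functions, amino acid catabolism and the urea cycle had a median of -0.02 over 27 genes. The median was 0.01 over 24 genes of oxidative phosphorylation and 0.09 over 21 ER stress and ATF4 targets. Of these 21, 1 was at an unadjusted p under 0.05, higher (1.38% of all genes). This was Sesn2, a stress-induced sestrin (0.93 ± 0.41). The ER stress median was 0.21 in high energy mice alone, with 16 of 21 higher. Endothelial markers had a median of 0.13 with 10 of 12 higher, and of 0.25 with 11 of 12 higher without replicate 4 of the fat group. Medians were -0.07 over 18 stellate cell and fibrosis genes and 0.05 over 7 cholangiocyte markers, and -0.24 and 0.21 in high energy mice alone. Over the 8 mice 0 genes of these 3 lists were at an unadjusted p under 0.05.

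In high energy mice alone, where energy density was equal, 0 of 16926 genes passed the threshold (0%) and 376 were at an unadjusted p under 0.05 (2.22%). The 95% interval reached, in the median gene, 0.58 to either side. The carbohydrate group then held 2 mice, 1 on each side of the Y-linked and Xist split. Bcl6 differed by 2.20 ± 0.30 (95% interval 1.51 to 2.89) and Cidec by -2.22 ± 0.57, both larger than over the 8 mice. For the lipogenic genes the differences were smaller, with Me1 at 0.83 ± 0.50, Acss2 at 0.51 ± 0.25 and Acaca at 0.33 ± 0.30. Me1, Acss2, Acaca and Elovl6 were lower in the high energy than in the medium energy carbohydrate mice, with a high minus medium energy difference of -1.05 ± 0.49 for Elovl6 and 2 mice on each side.

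The same exchange was set beside those at other protein shares in 1 fit over 47 mice, as the log2 change for each 10 points of energy moved from fat to carbohydrate. At 14% protein the contrast spans 28 points. At 33% protein it spans 27 points (33/47/20 with 4 mice against 33/20/47 with 5, both with high and medium energy), and at 5% protein 55 points (5/75/20 with 4 mice against 5/20/75 with 2, high energy). These contrasts share no mice. In this fit 0 genes passed at 14% protein (422 at an unadjusted p under 0.05, 2.49%), 0 at 33% (1575, 9.31%) and 11 at 5% (0.065%). The contrasts were not alike in sex markers. The median of 3 Y-linked genes per 10 points was 0.58 at 33% protein, 0.20 at 5% and -0.0005 at 14%. Liver genes higher in males had medians of 0.47, 0.21 and 0.04 in that order, and those higher in females -0.44, -0.05 and 0.004. The part of sex in these counts was not tested.

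None of the 11 genes that passed at 5% protein passed at 14%. With 55 points moved to carbohydrate at 5% protein, Scd1, Cps1, which starts the urea cycle, Urad, an enzyme of urate breakdown, the argininosuccinate synthase relative Gm5424 and the carboxylesterase Ces3b rose (0.0295% of genes), and Sag, Trpm6, Rims2, Cables1, Lyl1 and Bcl6b fell (0.0354%). A probe for Gm5424 may also bind transcripts of Ass1, its near copy. At 14% protein 6 of the 11 had the same sign. Per 10 points Scd1 rose by 0.45 ± 0.07 at 5% protein (limma adjusted p = 0.00136) and stood at 0.13 ± 0.11 at 14% and 0.34 ± 0.11 at 33%. Cps1 rose by 0.17 ± 0.03 at 5% and stood at 0.02 ± 0.04 at 14%. The difference between the protein shares was itself tested and did not pass for any gene, with 0 of 16926 called for 14% minus 5% (465 at an unadjusted p under 0.05, 2.75%) and 0 for 14% minus 33% (629, 3.72%). The difference was -0.31 ± 0.13 for Scd1 and -0.15 ± 0.05 for Cps1.

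Among the 5 genes with the smallest p for 14% minus 5% were Sag, a visual arrestin low in liver (0.38 ± 0.07, adjusted p = 0.0993), and Bcl6. Bcl6 stood at 0.66 ± 0.20 for 10 points at 14% protein, -0.39 ± 0.13 at 5% and 0.11 ± 0.20 at 33%, and the difference of 1.05 ± 0.24 between 14% and 5% had an adjusted p of 0.605. The remaining 3 were Stap1, Sapcd1 and Rabl3, with adjusted p-values of 0.605 to 0.670. For 14% minus 33% they were Sapcd1 (-0.43 ± 0.09, adjusted p = 0.248), Trim30c, Rps4l-ps, Defa33 and Olfr1193, all of them low on these arrays. Of the lipogenic genes besides Scd1, Acaca and Me1 were higher with carbohydrate at each protein share. Acaca stood at 0.22 ± 0.10, 0.13 ± 0.06 and 0.32 ± 0.10 at 14%, 5% and 33% protein, and Me1 at 0.36 ± 0.19, 0.16 ± 0.12 and 0.26 ± 0.19. Ifit1 stood at -0.40 ± 0.12, -0.03 ± 0.08 and -0.25 ± 0.12.

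**Figure D5:**
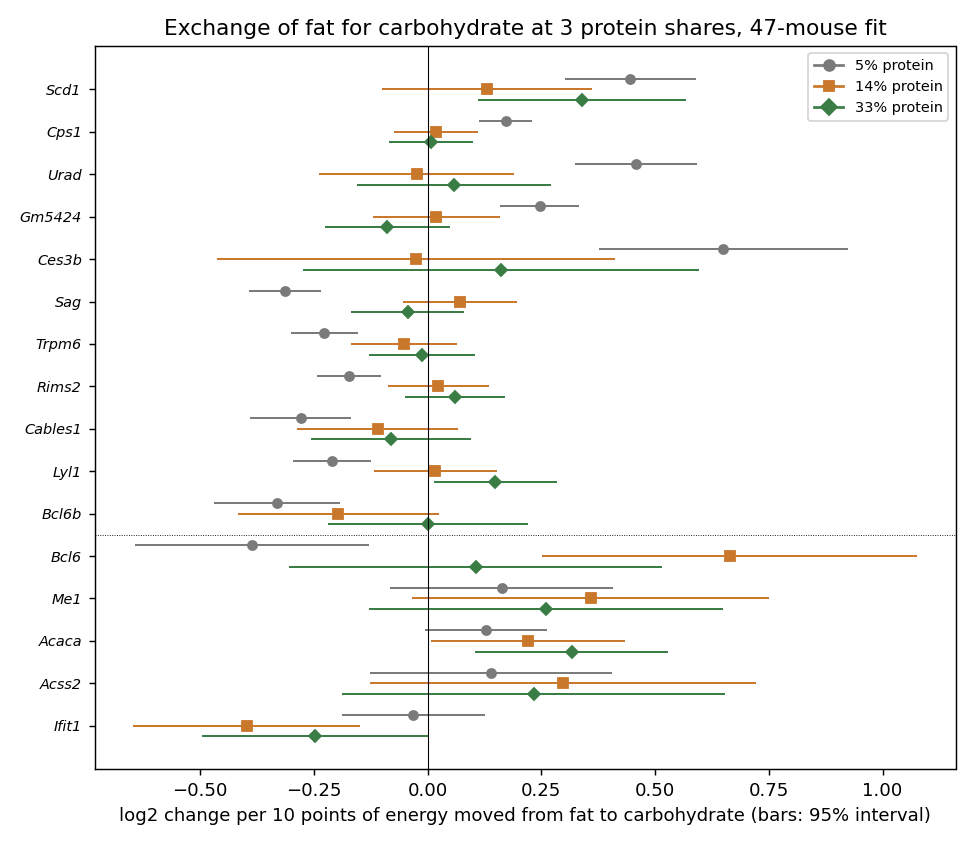
Log2 change for each 10 points of energy moved from fat to carbohydrate (horizontal axis, points with 95% intervals) at 5%, 14% and 33% protein, for the 11 genes that passed at 5% protein (above the dotted line) and 5 genes described at 14%. Scd1 lies at 0.45, 0.13 and 0.34, and Bcl6 at -0.39, 0.66 and 0.11.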

How the data were processed

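Each liver gave total RNA for 1 Affymetrix array, according to the labels' protocols. Values on a log2 scale for 41345 probe sets, from -0.51 to 13.42, were used as deposited by the authors. That scale was read from the range, and the authors' background correction, normalization and software are not given in the sources used here. Probe sets were named from the platform annotation. Each gene was represented by the probe set with 1 symbol and the highest mean over 48 arrays. Tests covered the 16926 genes whose mean exceeded 1.17, the 30th percentile of probe sets.

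Models were fitted in R 4.3.3 with limma 3.58.1, using lmFit and trended eBayes: over the 8 mice, over high energy mice alone, and, with 1 mean for each of 19 diet and energy combinations, over 47 mice. All p-values are two-sided, and the Benjamini-Hochberg adjustment runs over all genes tested. The code was tested on simulated data. Described were the 12 genes of smallest p in each direction, up to 4 genes of smallest p per list, a set of known diet-responsive genes, the 5 smallest p of each comparison between protein shares, and the genes called at 5% protein. Genes holding a motif, Cyp2b9 and genes named for single alternatives were chosen after their values were seen. The members and the lists were chosen with earlier results of these data known. With arrays, precision is limited by their number.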

Additional observations from a re-analysis of the deposited data

Results flagged for a closer look

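In 14 of 322 groups of 4 mice tested (4.35%) the highest or lowest mouse lay far from the other 3 by Dixon's test. Chance flags about 1 in 20 such groups.

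In the carbohydrate group a high energy mouse, replicate 1, was low for Vegfb (7.06, others 7.36 to 7.38) and high for Lepr (6.63, others 5.51 to 5.68) and Ttr (12.99, others 12.84 to 12.87). The other high energy mouse was high for Moxd1, a copper-dependent monooxygenase (6.59, others 0.759 to 1.005), and for Tnnt3 (2.34, others 1.93 to 1.98). Medium energy replicate 1 was high for Btbd6 (5.80, others 5.40 to 5.45) and low for the clock gene Per1 (5.93, others 6.87 to 6.97) and for Pck1 (11.71, others 12.27 to 12.36). Medium energy replicate 2 was high for Tmem86a (5.20, others 4.73 to 4.79), and this was the carbohydrate mouse nearest to the fat group.

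In the fat group replicate 1 was high for Gstm3 (8.05, others 6.75 to 6.88) and Col4a1 (5.81, others 5.19 to 5.27) and low for Angptl8 (7.73, others 7.85 to 7.86). Replicate 3 was low for Vwf (2.68, others 3.34 to 3.46). Replicate 4, the mouse with the highest myeloid markers of the 8, was high for Ifit1 (6.06, others 5.23 to 5.33).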

How the results depend on the processing

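The count of genes past the threshold was 0 in all 23 alternatives of the comparison over the 8 mice, with 362 to 980 genes at an unadjusted p under 0.05 (limma). One alternative, the fit over 47 mice with the Y-linked minus Xist value as a term, was chosen after seeing the data. In high energy mice alone the count ran from 0 to 2 when a mouse was left out, with Moxd1 (adjusted p = 0.00311) and Cdkn1a (0.0419) passing without high energy 14/57/29 replicate 1, where 1 mouse stands against 4 and is assumed to vary like the fat group. For 14% minus 33% protein it ran from 0 to 1, with Sapcd1 passing without medium energy 14/57/29 replicate 2 (adjusted p = 0.0311) and Sprr1a without medium energy 33/47/20 replicate 2 (0.00274). For 14% minus 5% protein it also ran from 0 to 1, with Sag passing without high energy 14/29/57 replicate 2 (0.0141) or without high energy 5/20/75 replicate 1 (7.13e-05). The calls of Sapcd1 and Sprr1a, and the last of Sag, leave 1 mouse in that diet and energy combination, which is assumed to vary like the other combinations. Of 161 genes described, 129 kept their sign in every alternative of the comparison run for them, and of 30 list medians 9 did. The 24 genes with the smallest p were among the 129, but their sign was largely fixed by choosing them in the same mice. With the medium energy 14/29/57 mouse added, the median of fatty acid synthesis was 0.65 and of cholesterol synthesis 0.71. Medians of bile acid genes (0.56), xenobiotic genes (0.53) and hepatocyte identity (0.22) were then above 0 too. No paired analysis was possible because replicate numbers were given in accession order and mark no shared litter, cage or day. With 4 mice a group, differences below about 1.35-fold were within the unadjusted interval of a typical gene, and larger ones could also miss the threshold over all genes.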
